A study of Mus musculus with 2 samples.

Results

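The Ly6 genes encode small cell-surface proteins, and 6 of them (Ly6a, Ly6c1, Ly6c2, Ly6e, Ly6g and Ly6i) were looked up by symbol in RNA counts from mouse bone marrow-derived dendritic cells. Of the 6, 5 were found among 23238 gene symbols, and Ly6g was not analysed here. There were 2 libraries. Both came from marrow of female C57BL/6 mice aged 7 weeks, cultured with 20 ng/ml of the growth factor GM-CSF, which was added again on day 3, and the loosely attached and floating immature cells were taken on day 6. One library was labelled control and the other UNE-C1, called the treated library here, with 100 nM over 24 h given as the treatment. The labels repeat that treatment text for both samples and give no separate handling for the control. UNE-C1 derives from cysteinyl-tRNA synthetase and has been described as a protein that binds and activates TLR2 and TLR6, both Toll-like receptors.

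Ly6 proteins fold into a compact domain of finger-like loops held by disulfide bonds and are tied to the outer membrane leaflet by a glycosylphosphatidylinositol (GPI) lipid anchor. In the mouse they serve as surface markers of blood cells: Ly6a is Sca-1, used to isolate haematopoietic stem cells and also carried by activated lymphocytes, Ly6c1 and Ly6c2 encode the Ly6C antigens that mark inflammatory monocytes, and Ly6g marks neutrophils. Several, Ly6a and Ly6e among them, are known as interferon-inducible genes, and Ly6e is further known as a protein that limits coronavirus entry.

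The libraries held 14857198 reads (control) and 15975821 reads (treated), made with a QuantSeq kit that reads messenger RNA near its 3' end, so a level is not divided by transcript length. Levels are given as CPM, read counts scaled to library size after TMM normalization, and a log2 fold change is log2((CPM + 1)/(CPM + 1)), UNE-C1 over control. With 1 library per group there are no replicates and no test, and every interval given covers counting error only. In bulk RNA, fewer cells of a type and less RNA per cell cannot be told apart. Of 10469 genes with at least 50 reads in a library, 9.31% were higher in the treated library by 2-fold or more, 9.42% were lower by as much, and the median gene stood at a log2 fold change of -0.00. If libraries were scaled by total counts instead, the median gene stood at -0.33, and higher genes were 28.0% of those past 2-fold rather than 49.7%. Of 8 dendritic cell markers, 7 passed the floor, 3 were above 0, none was higher by 2-fold and 1, Itgax, was lower. H2-Ab1 and Cd74 were abundant in both libraries (2732 and 2594 CPM, and 2907 and 2901 CPM), Itgax, which encodes CD11c, was at 759 and 246 CPM. Ccr7, Ciita and Flt3 had log2 fold changes of 0.53, 0.38 and -0.83, and Cd209a had 0 reads in both libraries.

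All 5 measured Ly6 genes were higher in the treated library by 2-fold or more, beside 9.31% of all genes, and their median log2 fold change was 1.74. The Ly6 genes were chosen with earlier results of these data known, so this contrast is no independent evidence. All 5 passed the floor of 50 reads in the control library alone. They were not alike in size. Ly6a was 42.7-fold higher, while the other 4 ranged from 2.20-fold for Ly6e to 4.68-fold for Ly6i. Together the 5 genes went from 1149 to 3709 CPM, a ratio of 3.23 (95% counting interval 3.17 to 3.28), which took them from 0.129% to 0.329% of all reads.

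**Figure D1:**
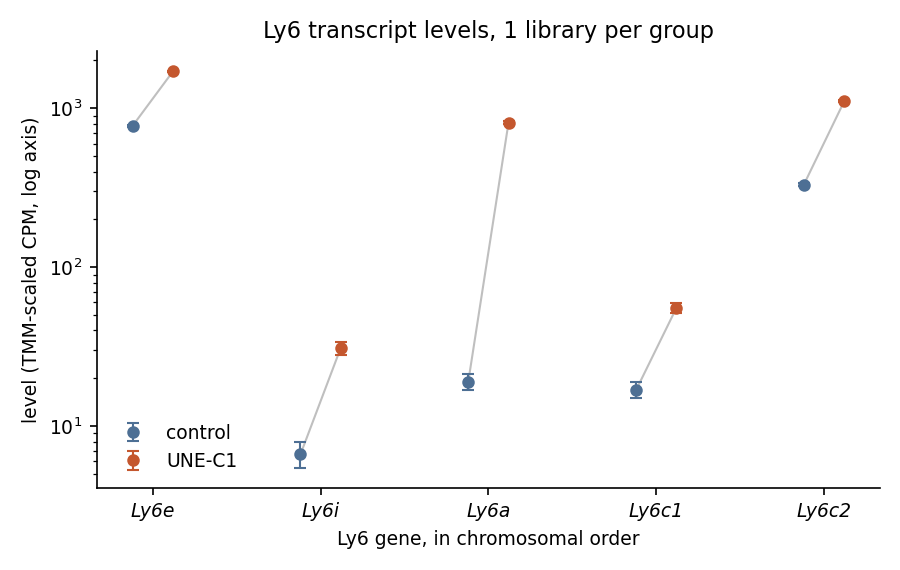
Level of each of the 5 measured Ly6 genes in the control (blue) and UNE-C1 (orange) library, in TMM-scaled CPM on a log axis. Each point is 1 library and bars are 95% Poisson counting intervals; every gene sits higher in the treated library, with the steepest line for Ly6a (19.0 to 812 CPM).

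Ly6a, the Sca-1 antigen, had 318 reads in the control and 11516 reads in the treated library. On the CPM scale this was 19.0 and 812, a ratio of 42.7 with a counting interval of 38.2 to 47.9. The control level was a middling one, at rank 5966 of the genes with a read, and the UNE-C1 level was at rank 169. Its log2 fold change of 5.34 was the 16th highest of the 10469 genes past the floor. Ly6a (ENSMUSG00000075602.10) lies on chromosome 15 from 74994877 to 74998031 on the minus strand of GRCm38, the assembly also called mm10.

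Markers of the other cells on which Sca-1 is commonly read were mixed. Of 8 stem and progenitor markers, 5 passed the floor, 1 was 2-fold or more higher and 1 lower by as much, and their summed level was 179 CPM (control) and 1028 CPM (treated). The difference in that sum was almost wholly Procr, the endothelial protein C receptor, with 2510 and 14365 reads. The stem cell receptor Kit had 74 and 19 reads, Cd34 had 102 and 45, Hlf had 10 and 0, and Mecom had 0 in both. Of 7 endothelial markers, 3 passed the floor and 2 were at least 2-fold higher, with a summed level of 36.6 and 271 CPM. In the treated library that sum was mostly the growth factor receptor Kdr (182 and 3513 reads). Pecam1, the other marker at least 2-fold higher, had 59 and 128 reads, and Vwf had 359 and 183. The vascular cadherin Cdh5 had 9 and 7 reads, Tek and Emcn each had 2 and 3, and Cldn5 had 0 and 12. Of 10 T and natural killer cell markers, 1 passed the floor, Klrd1, with 76 and 9 reads. The T cell receptor chain gene Cd3e had 0 reads in both libraries. The summed T and natural killer level was 8.84 and 3.95 CPM. The part of stem, progenitor, endothelial, T or natural killer cells in the Ly6a level was not tested.

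Ly6e, the most abundant of the 5 genes in both libraries, had 12976 control reads and 24181 treated reads. Its level went from 775 to 1705 CPM, ranks 122 and 64 among genes with a read. The ratio of 2.20 (interval 2.15 to 2.25) was the smallest of the 5, and with total counts it was 1.73, below 2-fold. Ly6e (ENSMUSG00000022587.14) lies on the plus strand of chromosome 15 from 74955051 to 74959905, at the start of the cluster. It is also the most distant in sequence, with 50.1% to 53.6% identity to the coding sequences of the other 4 measured genes.

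Ly6i, a close relative of Ly6a whose own function is less well known, was the least abundant, with 111 control reads and 440 treated reads. This was 6.63 and 31.0 CPM, a ratio of 4.68 with a counting interval of 3.79 to 5.81, the widest relative to its size among the 5. Ly6i (ENSMUSG00000022586.11; chromosome 15, 74979534 to 74983430, minus strand) is the neighbour of Ly6a, and their coding sequences were 86.3% identical. Despite this likeness, the ratio of Ly6a exceeded that of Ly6i 9.14 times (interval 7.14 to 11.6).

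**Figure D2:**
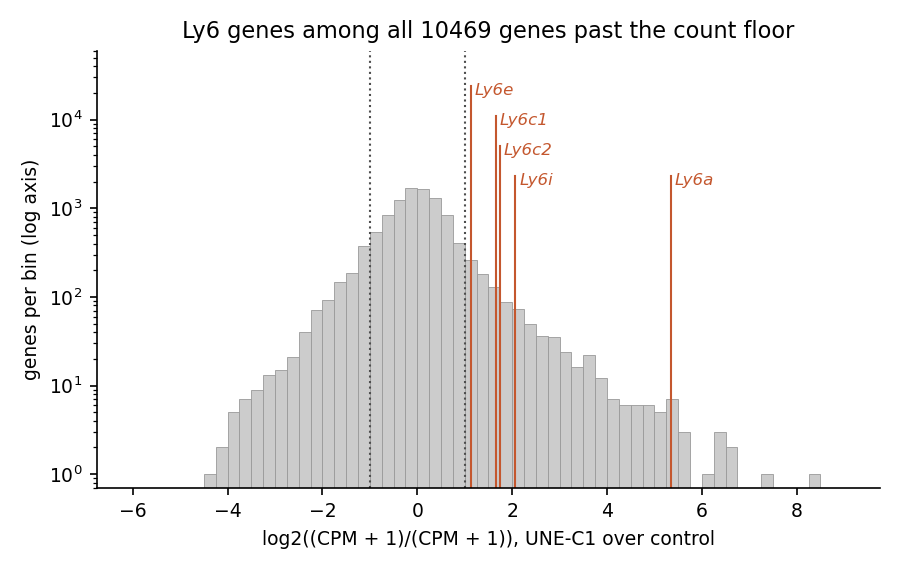
Distribution of log2 fold changes, UNE-C1 over control, over the 10469 genes past the count floor (grey bars, number of genes per bin on a log axis), with the 5 measured Ly6 genes as orange lines whose heights only separate the labels. Dotted lines mark 2-fold in either direction; Ly6a at 5.34 lies in the far right tail and the other 4 lie between 1.14 and 2.07.

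The ratios of the Ly6C pair did not differ beyond counting error. Ly6c2, the more abundant, had 5545 control reads and 15692 treated reads, or 331 and 1106 CPM, a ratio of 3.34 (interval 3.24 to 3.44). Ly6c1 had 282 and 785 reads, or 16.9 and 55.3 CPM, a ratio of 3.28 (interval 2.86 to 3.78). The ratios differed by a factor of 1.02 (interval 0.881 to 1.17), the only pair of the 10 among the 5 genes whose interval included 1. Ly6c1 (ENSMUSG00000079018.10) spans 75044018 to 75048830 and Ly6c2 (ENSMUSG00000022584.14) spans 75108158 to 75111970, both on the minus strand of chromosome 15.

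Reads of this pair are the ones most open to exchange in counting. Their coding sequences were 97.7% identical, and of the 251 windows of 50 bases in the last 300 bases of each transcript, 75 (29.9%) also occurred in the other. For Ly6e, Ly6a and Ly6i, none of these 251 windows occurred in a transcript of another gene among the 55450 genes of GENCODE M21, Ly6g and Ly6f included. Only exact matches were searched, so exchange of reads aligned with mismatches was not examined. The sources used here do not say how multiply mapped reads were counted, so the separate values of Ly6c1 and Ly6c2 are uncertain. Their summed reads, 5827 and 16477, give a ratio of 3.34 (interval 3.24 to 3.44) that does not depend on how the reads were divided between them.

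As counted, Ly6c1 and Ly6c2 had nearly the same ratio at levels that differ widely, though their separate values are uncertain. The promoters of the pair are shown for this reason, and that of Ly6f because this gene of the same cluster was read only in the treated library. Each is the RefSeq window (GRCm38.p6, minus strand for Ly6c1 and Ly6c2, plus strand for Ly6f) of 250 bases before to 50 bases after a start site, 5′ to 3′, with matches to TATAAA and CCAAT in capitals. For Ly6c1 and Ly6c2 it is the first of 2 windows in the table. Of the 6 listed genes, 3 had a window (Ly6c1, Ly6c2 and Ly6g).
Ly6c1, chr15:75048788-75049087: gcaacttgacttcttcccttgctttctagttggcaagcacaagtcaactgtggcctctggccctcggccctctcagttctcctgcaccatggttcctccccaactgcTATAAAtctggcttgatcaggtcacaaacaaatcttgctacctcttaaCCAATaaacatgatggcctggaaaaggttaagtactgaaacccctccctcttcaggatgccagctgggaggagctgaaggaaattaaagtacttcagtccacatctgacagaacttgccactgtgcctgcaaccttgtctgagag
Ly6c2, chr15:75111922-75112221: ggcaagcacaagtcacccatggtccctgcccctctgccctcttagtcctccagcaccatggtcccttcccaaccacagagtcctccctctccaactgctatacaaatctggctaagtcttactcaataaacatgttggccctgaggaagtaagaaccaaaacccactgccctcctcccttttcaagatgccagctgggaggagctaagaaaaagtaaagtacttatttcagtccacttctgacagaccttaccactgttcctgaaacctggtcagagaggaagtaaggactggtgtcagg
Ly6f, chr15:75268171-75268470: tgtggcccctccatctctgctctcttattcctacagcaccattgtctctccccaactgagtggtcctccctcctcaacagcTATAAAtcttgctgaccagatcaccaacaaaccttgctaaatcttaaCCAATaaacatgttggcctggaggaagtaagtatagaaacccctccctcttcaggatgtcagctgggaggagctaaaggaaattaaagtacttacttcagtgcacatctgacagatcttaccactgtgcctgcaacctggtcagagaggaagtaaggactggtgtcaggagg
The Ly6c1 and Ly6c2 windows shown were 73.8% identical over 282 aligned positions, less than their coding sequences. Their second windows were 81.4% identical over 194 positions. A TATAAA match lay 143 bases and a CCAAT match 95 bases upstream of the start site in Ly6c1, and 169 and 122 bases upstream in Ly6f. The Ly6c2 window held neither, and the second windows of Ly6c1 and Ly6c2, not shown, also held neither. On both strands, 13.6% of the 32851 promoter windows held TATAAA and 37.4% held CCAAT. The interferon-stimulated response element core (GAAA, any 2 bases, GAAA; 3.44% of all windows) and the STAT-binding GAS element TTCNNNGAA (8.30%) had no match in any of the 3 windows shown, and no matches overlapped each other. A match or its absence describes these letters in this window only.

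Ly6c2 is used as a monocyte marker, and the other monocyte genes went both ways. Of 12 monocyte markers, 11 passed the floor, 6 were above 0, 4 were 2-fold or more higher and 2 lower by as much, with a median log2 fold change of 0.17 and a summed level of 3333 CPM (control) and 2684 CPM (treated). Ccr2, the chemokine receptor that marks Ly6C-high monocytes together with Ly6C, had 4121 and 655 reads, 5.33-fold lower (interval 4.91 to 5.80). The growth factor receptor gene Csf1r was at 2335 and 1468 CPM. The Fc receptor Fcgr1 was at 33.0 and 397 CPM, and Plac8 and the coagulation factor subunit F13a1 were 3.26-fold and 2.41-fold higher. None of the 12 was at 0 in either library. Of 8 plasmacytoid dendritic cell markers, another cell type that carries Ly6C, 5 passed the floor and Bst2, itself interferon-inducible, was the 1 at least 2-fold higher. Their summed level was 166 and 481 CPM, mostly Bst2 in the treated library (301 CPM). Tcf4 had 1370 and 1801 reads and Runx2 had 315 and 473, while Ccr9 had 104 and 52 and Spib had 315 and 196. The defining receptor Siglech, below the floor, had 9 and 0 reads. Plasma cells also carry Ly6C. Of 8 B and plasma cell markers, Sdc1 alone passed the floor, with 2131 and 3737 reads, and it held nearly all of the summed level of 130 and 264 CPM. The plasma cell genes Jchain and Mzb1 had 2 and 1 reads, and 9 and 2 reads, and the B cell gene Pax5 had 0 in both. The part of monocytes in the Ly6c2 level was not tested.

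Ly6g itself, the neutrophil member, gave no value, but other neutrophil genes were measured. Of 16 neutrophil markers, all passed the floor, 12 were lower in the treated library by 2-fold or more and 1 was higher, and the summed level was 8584 and 3779 CPM. The calcium-binding proteins S100a8 and S100a9 had 50582 and 18226 reads, and 51594 and 17596 reads. Retnlg had 1699 and 110 reads, and the proteases Mmp8, Mmp9 and Elane had 11872 and 2443, 7150 and 1198, and 106 and 6 reads. The exception was the siderophore-binding Lcn2, with 3778 and 7812 reads. The 5 Ly6 genes were thus higher where most of these markers were lower, and the part of neutrophils in the Ly6 levels was not tested.

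Because the make-up of the Ly6 reads does not depend on library scaling, it was compared as well. In the control, Ly6e held 67.5% of the reads on the 5 genes (exact binomial 95% interval 66.8% to 68.1%), Ly6c2 28.8% (28.2% to 29.5%), and Ly6a 1.65% (1.48% to 1.84%). In the treated library, Ly6e held 46.0% (45.5% to 46.4%), Ly6c2 29.8% (29.4% to 30.2%) and Ly6a 21.9% (21.5% to 22.2%). The share of Ly6a was higher and that of Ly6e lower, and for neither gene did the intervals of the 2 libraries overlap. Ly6c1 held 1.47% and 1.49%, and Ly6i held 0.577% and 0.836%. Of the 2560 CPM added over the 5 genes with TMM scaling, Ly6e made up 36.3%, Ly6a 31.0% and Ly6c2 30.3%. Unlike the shares of reads, these parts depend on library scaling and were computed with TMM only, so their order is not settled.

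**Figure D3:**
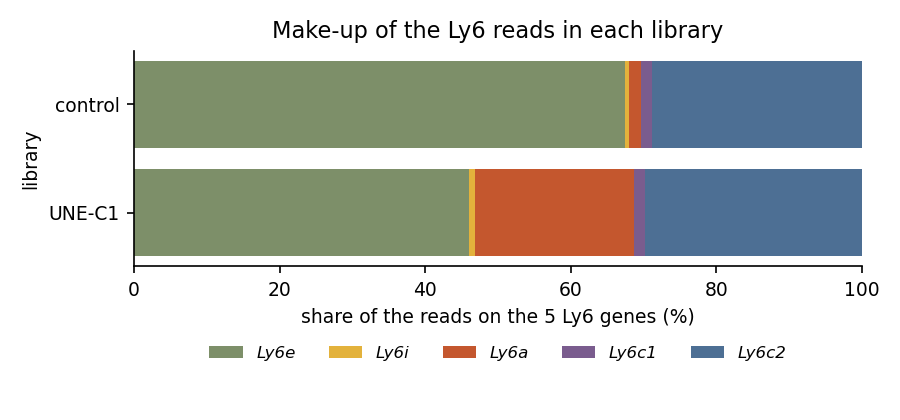
Share of the reads on the 5 measured Ly6 genes that falls on each gene (percent of 19232 reads in the control and 52614 reads in the treated library). The Ly6a segment widens from 1.65% to 21.9% as the Ly6e segment narrows from 67.5% to 46.0%.

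The order of levels was Ly6e, Ly6c2, Ly6a, Ly6c1 and Ly6i in both libraries, but the spacing differed. In the control, Ly6c2 was 17.4 times as high as Ly6a (interval 15.6 to 19.6), and Ly6a and Ly6c1 did not differ beyond counting error (1.13 times, interval 0.958 to 1.33). In the treated library, Ly6c2 was 1.36 times as high as Ly6a (interval 1.33 to 1.40), and Ly6a was 14.7 times as high as Ly6c1 (interval 13.6 to 15.8). Among the ratios of the 5 genes, the intervals of 9 of the 10 pairwise comparisons excluded 1, which places Ly6a above Ly6i, Ly6i above the Ly6C pair, and that pair above Ly6e. The ratio of Ly6a was 19.4 times that of Ly6e (interval 17.3 to 21.8) and 12.8 times that of Ly6c2 (interval 11.4 to 14.4). Ly6i exceeded Ly6c2 only 1.40 times (interval 1.13 to 1.74). These comparisons hold within the libraries and take no account of variation between cultures.

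The 6 listed genes lie within 204 kb of chromosome 15, from 74955051 to 75159126. From Ly6e onward the order along the chromosome is Ly6i, Ly6a, Ly6c1, Ly6c2 and Ly6g, and the ratios did not follow it. Ly6a, with the highest ratio, starts 43.0 kb from Ly6e, which has the lowest. The cluster's measured neighbours within 100 kb, Cyp11b2 (an adrenal steroid enzyme) and 2010109I03Rik (Ly6m in RefSeq), had 0 and 1, and 0 and 4 reads.

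**Figure D4:**
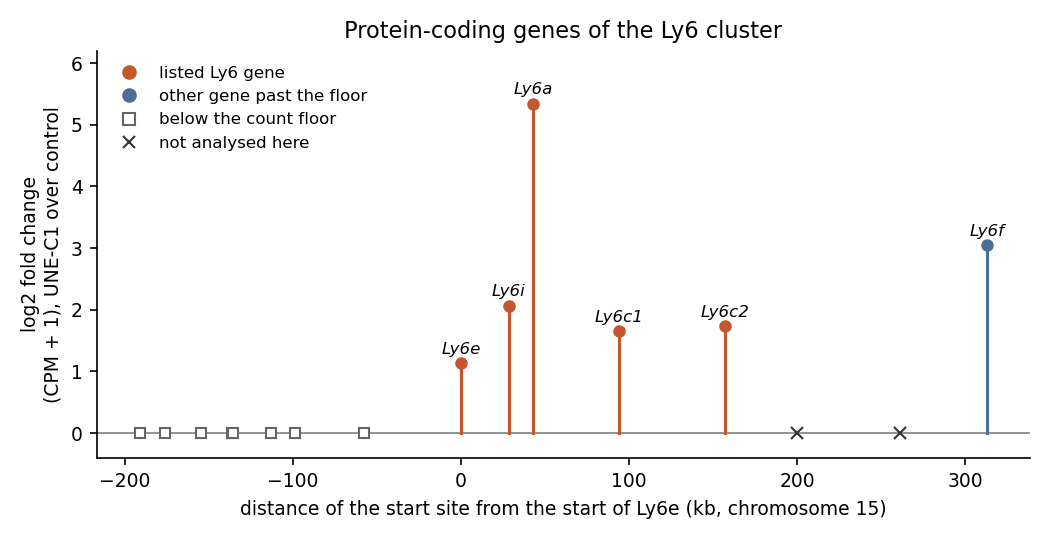
Log2 fold change, UNE-C1 over control, of protein-coding genes of the Ly6 cluster by distance of their start site from that of Ly6e in kb. Listed Ly6 genes are orange, squares mark genes below the count floor and crosses genes not analysed here; Ly6a stands highest at 5.34, and the value of Ly6f rests on 0 control reads and depends on the pseudocount.

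Most relatives with the same domain had few or no reads. Of 35 other genes of the Ly6 and urokinase receptor family found by symbol, 19 had no read in either library, 13 had 27 reads or fewer, and 3 passed the floor, of which 1 was at least 2-fold higher and 1 lower. Ly6f, which lies beyond Ly6g in the cluster, had 0 control reads and 103 treated reads. The exact counting interval of its ratio starts at 32.4, and with 3 reads set in place of the 0 the ratio would be 40.5. Ly6f passed the floor through the treated library only. Its transcript end shared none of the 50-base windows with another gene. Plaur, the urokinase receptor, had 1763 and 611 reads, 2.45-fold lower (interval 2.23 to 2.69). Cd59a, which blocks the complement pore, had 71 and 36 reads, 1.67-fold lower (interval 1.10 to 2.57). Ly6d, Lynx1 and Psca, on the same chromosome before Ly6e, had 14 and 8, 12 and 23, and 5 and 8 reads.

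The machinery that attaches Ly6 proteins to the membrane was near the median gene. Of 28 GPI anchor synthesis and transfer genes, 24 passed the floor, none was at least 2-fold higher and 1 was lower, with a median log2 fold change of 0.01. The lower one was Pgap1, which trims an acyl chain from the anchor, with 996 and 314 reads (2.69-fold lower, interval 2.37 to 3.06). Piga, the catalytic subunit of the first step, had 63 and 106 reads, and Pigc, its partner, 488 and 774. Of 28 other GPI-anchored surface proteins, 15 passed the floor, 4 were higher and 2 lower (median -0.07). The higher ones included Vnn3, a pantetheinase (12 and 470 reads), tetherin Bst2 (642 and 4274 reads) and the ectoenzyme Bst1 (737 and 2599 reads). Gfra2, a neurotrophic factor receptor, had 177 and 2 reads.

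Since Ly6a and Ly6e are known interferon targets, they were set beside 32 interferon response genes, of which 31 were at least 2-fold higher and none lower (median log2 fold change 2.89). This list was chosen with its direction in these libraries known and is no independent evidence. The log2 fold change of Ly6a was above those of 26 of the 32 and below those of 6, which include Iigp1 (7.40), Rsad2 (6.59), Oasl1 (6.31) and Cmpk2 (6.03). Those of Ly6i, Ly6c1 and Ly6c2 were each above 3 of the 32. That of Ly6e was above 1, Irf9 (0.72).

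The genes nearest to each Ly6 gene in the plane of its control and UNE-C1 levels, on the log2(CPM + 1) scale, were picked as a description over 2 libraries. For Ly6a these were Isg20, an interferon-induced exonuclease (368 and 12775 reads, distance 0.25), and Ifi205 (382 and 9858 reads, distance 0.34). For Ly6e they were Rnaset2b, a ribonuclease (13048 and 23297 reads, distance 0.05), and Anxa2, a membrane-binding annexin (distance 0.26). For Ly6c2 they were the chemokine Cxcl16 (6175 and 17959 reads, distance 0.25) and the protease Ctsc (distance 0.27). Ly6c1 was nearest to Tspan13 and Whamm, both at a distance of 0.04. Ly6i was nearest to the decoy receptor Il1r2 (103 and 438 reads, distance 0.09) and Jdp2 (distance 0.11). As reference genes, Actb was 1.21-fold higher (interval 1.20 to 1.21) and the leukocyte antigen gene Ptprc had a log2 fold change of -0.16.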

How the data were processed

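The authors deposited 1 table of raw read counts per library, with whole numbers per gene symbol and no normalization; the unit was read from the values. Bowtie2, edgeR and the mm10 build are named in the submitters' processing notes, without versions or roles; the sources used here do not give the counting tool, annotation or strand setting. Libraries were QuantSeq 3' libraries from 500 ng of RNA, per the labels' protocols. Each table held 23282 entries, and the 35 repeated symbols were summed; none was a Ly6 gene listed here. Rn45s took 5.21% and 3.98% of reads.

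Counts were scaled with TMM (edgeR 4.0.16, R 4.3.3; factors 1.13 and 0.888), with a pseudocount of 1 CPM for log2 values and a floor of 50 reads in a library. Ratios are plain CPM ratios with exact (Clopper-Pearson, conditional binomial) 95% intervals, and comparisons of ratios are conditional odds ratios (scipy 1.17.1). PCR copies cannot be told from molecules, so intervals cover the counting error of reads only and can be too narrow for molecules. There was 1 library per group, so nothing was tested. Total counts, DESeq2 1.42.0 size factors, TMM refitted without Rn45s, pseudocounts of 0.1 and 5 and floors of 10 and 200 reads or none were tried. The procedure was tested on simulated Poisson counts in which few genes changed. That test does not bear on the choice of scaling or on variation between cultures. Positions and transcripts are from GENCODE M21 and promoters from RefSeq (GRCm38.p6). Identity is over all aligned positions, gaps included, except that end gaps were left out for promoters (biopython 1.88). The genes named are the 6 listed ones, the 2 nearest genes to each, and from each list those with the largest change past the floor or most reads. That rule also picked Pigw, Chil3, Cd8a and Cd79b, which are not described above. Cdh5, Tek, Emcn, Cldn5, Spib, Cd3e, Cd209a, Mecom, Hlf, Siglech, Pax5, Jchain, Mzb1, Lcn2, Irf9, Cyp11b2, 2010109I03Rik, Ly6d, Lynx1 and Psca were chosen after their values were seen. The Ly6 genes and all lists were chosen with earlier results of these data known.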

Additional observations from a re-analysis of the deposited data

How the results depend on the processing

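Every Ly6 ratio stayed above 1 under each alternative. With total counts the ratios of Ly6e, Ly6i, Ly6a, Ly6c1 and Ly6c2 were 1.73, 3.69, 33.7, 2.59 and 2.63, and their sum was 2.54-fold higher, so that 4 of the 5, all but Ly6e, were at least 2-fold higher. Leaving Ly6e out of the sum gave a ratio of 5.36 with TMM. DESeq2 size factors and TMM refitted without Rn45s left each ratio inside its counting interval. Genes at least 2-fold lower, 986 in all, numbered 1693 with total counts, 484 when the pseudocount was 5 and 579 when the floor was 200 reads. In the 4 pathway lists together, 3 genes were lower, and 7 with total counts. Of 192 further list counts, 20 moved by over 1.5 times. With total counts, markers at least 2-fold higher went from 4 to 2 for monocytes and from 2 to 1 for endothelial cells. For neutrophils, and for B and plasma cells, the 1 higher marker fell below 2-fold. Markers at least 2-fold lower went from 2 to 3 for monocytes, 12 to 14 for neutrophils and 0 to 1 for endothelial cells. No paired analysis was possible because each group had 1 library, which also leaves variation between cultures unmeasured.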
